A study of Raphanus sativus with 8 samples.

Results

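The response of the early-bolting radish inbred line NH-JS2 to gibberellin (GA) was examined in whole shoots. NH-JS2_GA, sprayed on the leaves with 10 mM GA, was compared with NH-JS2, which received no GA. The comparison was defined by line and treatment, with raw read counts for all 78395 unigenes. It sets 4 of the 8 libraries of the series against each other, 2 per group. Seedlings of both groups had been vernalized for 10 days at an age of 4 days and then grown for 2 weeks, and shoots were harvested 6 days after the spray. At harvest the labels give the stage of NH-JS2_GA as bolting and that of NH-JS2 as vegetative growth, so treatment and stage cannot be told apart. The late-bolting line NH-JS1, grown and treated in the same way (NH-JS1_GA and NH-JS1, also 2 libraries each), is given beside results for NH-JS2. Its libraries also enter the tests, through the scaling, the filter on low counts and the shared estimate of spread. Each library is 1 pool of 3 plants, so a p-value here measures the spread between pools and not between single plants. Unigenes carry the identifier and description of their Arabidopsis match where there is one, and all gene names below are those of the match.

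As background, active GAs are made from ent-kaurene through the oxidases KO and KAO and the dioxygenases GA20ox and GA3ox, and they are inactivated by GA2ox. In Arabidopsis, GA bound to its receptors of the GID1 family leads the F-box protein SLY1 to mark DELLA repressors (RGA and the RGL proteins) for destruction, and active GA is known to lower transcripts of its own synthesis and receptor genes and to raise those of GA2ox. GA promotes stem elongation and flowering, and in Arabidopsis it acts on the floral integrators FT, SOC1 and LFY, while FLC and its MAF relatives hold flowering back until vernalization has silenced them.

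The libraries held 27743698 and 31904379 reads on unigenes in NH-JS2_GA and 28516180 and 23757588 in NH-JS2, within the range of 23757588 to 34165272 over all 8. The deposited counts have a floor of 1, and between 94.1% and 95.8% of unigenes lay above it in a library. Among the 4 NH-JS2 libraries, replicate 2 without GA lay farthest out on the first principal component and replicate 1 without GA on the second. On the first principal component of these 4 libraries, which held 41.9% of the variance, the libraries with GA scored -41.5 and 10.7, and those without GA scored -24.8 and 55.6. The second component (31%) had both libraries with GA at 24.7 and 32.9 and both without GA at -48.2 and -9.39. Among unigenes with a mean of 50 or more, 1.31% differed by more than 2-fold between the 2 pools of NH-JS2_GA and 2.34% between those of NH-JS2. Between the means of these 2 groups 0.626% differed by as much, although a mean of 2 pools varies less than a single pool. Leaf photosynthesis markers were abundant in every library, as the labelled tissue would have them, and root and shoot apical meristem markers were not analysed here, since no unigene matched them. Values are scaled counts, which are raw counts divided by the effective library size (trimmed mean of M-values, TMM) and brought to a common depth. A difference on the log2 scale (log2 fold change) is NH-JS2_GA over NH-JS2. Because these are whole shoots, fewer cells of a type and less RNA per cell cannot be told apart.

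Few unigenes passed the test for GA in NH-JS2, and most that passed were of low or middling abundance. By edgeR's quasi-likelihood test with Benjamini-Hochberg adjustment, 16 of 65934 tested unigenes rose (0.0243%) and 26 fell (0.0394%) at an adjusted p of at most 0.05. The median log2 fold change over all tested unigenes was -0.01, and the smallest among the 42 called was 0.88 in size with a median size of 3.63. Among them 34 matched 20 Arabidopsis genes and 8 had no match. Of the 42, 32 lay below a mean scaled count of 500 in both groups. For a differentially expressed gene (DEG) the study asked for 0.6 or more in size on the log2 scale and adjusted p no higher than 0.01. It also asked for read counts of 500 or more, taken here as a mean scaled count in 1 or both groups. The level at which the study applied that minimum is not clear. By these criteria 3 rose (0.00455%) and 3 fell (0.00455%) in edgeR. With DESeq the study reported more DEGs in each direction for this comparison. DESeq2 called 41 of the 42, and in all it called 60 higher (0.091%) and 138 lower (0.209%). Before any adjustment for the number of tests, 2469 unigenes were higher (3.74%) and 3316 lower (5.03%) at p under 0.05. These shares are the background for each count at that level below. Both libraries with GA lay above both without GA for 18.4% of all tested unigenes and below them for 19.7%, which is the background for each count of non-overlapping groups below. Unigenes of 1 match were measured in the same pools and may share reads, which was not tested. Counts of such unigenes are therefore not counts of replicates.

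The calls depended on the other line and on single libraries. With only the NH-JS2 libraries in the fit, 3 unigenes were higher and 17 lower at an adjusted p of at most 0.05. Without NH-JS2 replicate 2, 19 unigenes were higher and 71 lower at an adjusted p of at most 0.05, and 11 of the 42 were no longer called. Without NH-JS2 replicate 1, 32 were higher and 278 lower, and 4 of the 42 were lost. Leaving out a library of NH-JS2_GA lost 13 (replicate 1) or 12 (replicate 2) of the 42. Leaving out a library of the other line, which enters through the shared estimate of spread and the filter on low counts, lost 15 with either NH-JS1_GA library and 18 with either NH-JS1 library. There were 24 unigenes, 6 higher and 18 lower, that kept the call without each of the 8 libraries.

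**Figure D1:**
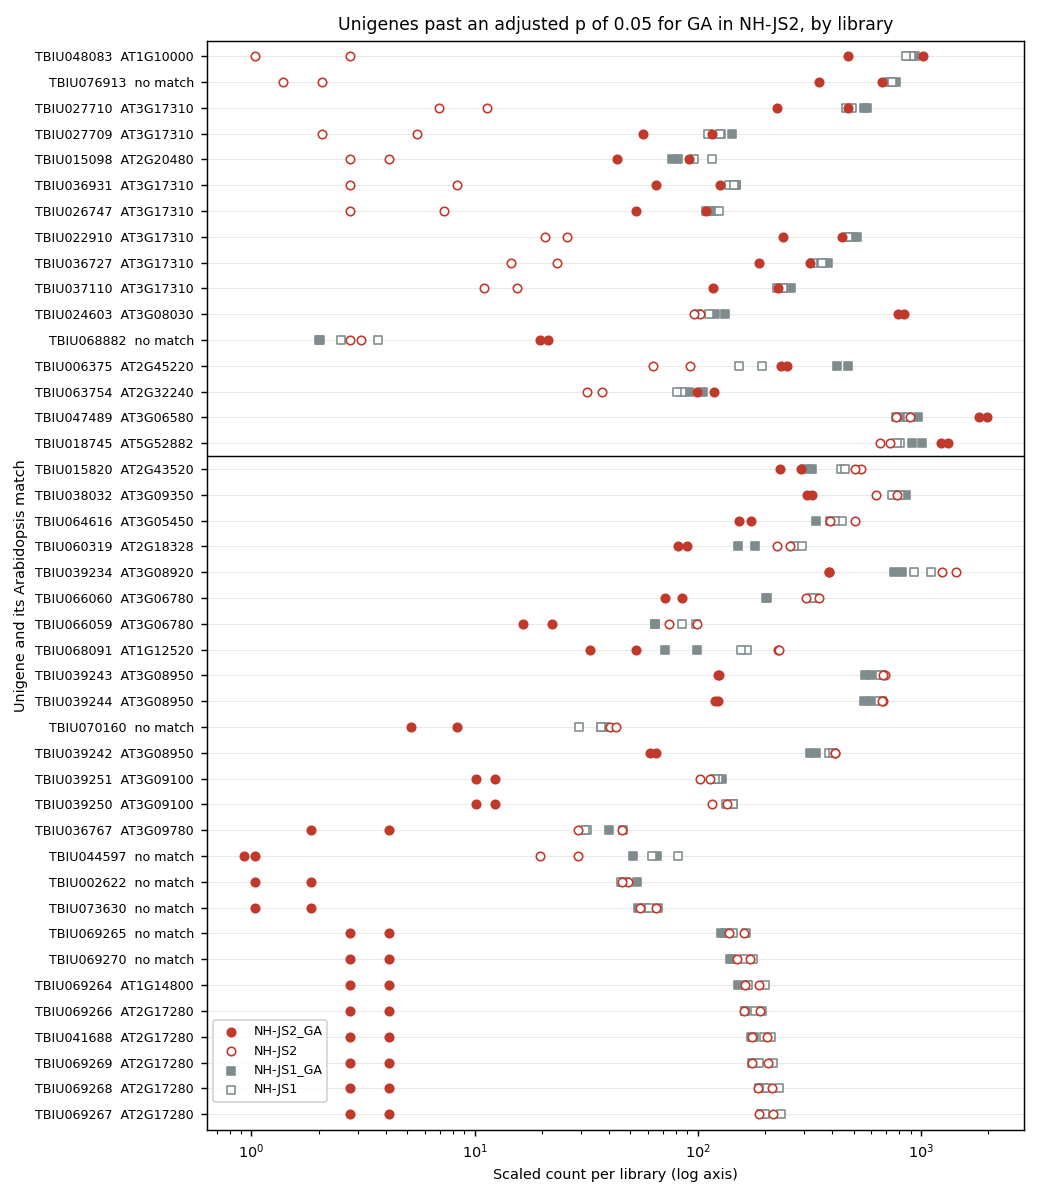
Scaled counts per library (log axis) of the 42 unigenes past an adjusted p of 0.05 for GA in NH-JS2, 1 line per unigene with those that rose above the horizontal rule and those that fell below it. Filled symbols are libraries with GA and open symbols those without, and NH-JS1 libraries are drawn beside those of NH-JS2. For most of the unigenes near the bottom of the scale in 1 NH-JS2 group, the other NH-JS2 group lies close to both NH-JS1 groups.

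The deepest losses were in unigenes that matched AT2G17280, a member of the phosphoglycerate mutase family, an enzyme fold found in glycolysis and in many phosphatases. Of its 7 unigenes 5 fell, and each of the 5 had raw counts of 4 and 3 in the libraries with GA. TBIU069267 had 4.13 and 2.77 scaled counts in NH-JS2_GA, against 189 and 218 in NH-JS2. Both treated pools were thus near the floor and both untreated pools well above it, and the NH-JS1 libraries had 193 and 195 with GA and 201 and 237 without. Its log2 fold change was -5.84 (SE 0.25, adjusted p = 3.23e-05). That fitted value depends on the prior count, and after 1 was taken from every count the untreated level was 77.1 times the treated one (95% interval 32.7 to 239, counting error only). TBIU041688, TBIU069266, TBIU069268 and TBIU069269 had the same treated values, with 162 to 187 in NH-JS2 replicate 1 and 189 to 216 in replicate 2, and log2 fold changes of -5.83 to -5.63. The other 2 unigenes of AT2G17280 were at 0.00 and 0.01 with adjusted p of 0.998 and 0.999.

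Neighbouring unigene identifiers carried the same pattern under other labels. TBIU069264, whose match AT1G14800 encodes an OB-fold protein of the nucleic-acid-binding kind, had 4.13 and 2.77 in NH-JS2_GA and 163 and 188 in NH-JS2 (log2 fold change -5.63, adjusted p = 4.87e-05). The other tested unigenes of that match ran from -2.30 to 0.90 and none passed. The unmatched TBIU069265 (-5.40) and TBIU069270 (-5.50) had 138 and 162, and 150 and 171, in NH-JS2, with the same raw counts of 4 and 3 in the treated pools, and the other 4 unmatched unigenes that fell lay at -5.26 to -2.59. The 8 unigenes with raw counts of 4 and 3 may share reads as near-identical sequences, which was not tested, so they are uncertain as separate genes and close to 1 signal. All 8 kept the call without each library, as did TBIU002622 and TBIU073630 of the other 4.

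AT3G09100 belongs to the family of enzymes that add the cap to the 5′ end of messenger RNA, and 2 of its 10 unigenes fell. TBIU039250 had 12.4 and 10.2 in NH-JS2_GA, against 135 and 116 in NH-JS2, and TBIU039251 had 12.4 and 10.2 against 114 and 102. Both fell, with log2 fold changes of -3.47 and -3.26 (SE 0.20 each, adjusted p = 0.000241 and 0.000375), and kept the call without each library. NH-JS1 lay between 120 and 144 for these 2 unigenes with or without GA, and the other 8 unigenes of the match were at 0.03 to 0.24. TBIU036767, matched to AT3G09780 (CRINKLY4 related 1, a receptor-like kinase), had 4.13 and 1.85 in NH-JS2_GA and 29.1 and 45.6 in NH-JS2. It fell by 3.59 (SE 0.42, adjusted p = 0.0298), with an untreated level 16.8 times the treated one (95% interval 6.24 to 63.8, counting error only), and it kept the call without only 2 of the 8 libraries.

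The opposite pattern, near the floor in NH-JS2 and high after GA, was led by AT3G17310, a member of the S-adenosyl-methionine-dependent methyltransferase superfamily. Of its 8 unigenes 7 rose. TBIU027710 had 226 and 470 in NH-JS2_GA, against 11.4 and 6.91 in NH-JS2, and rose by 5.19 on the log2 scale (SE 0.45, adjusted p = 0.00375). TBIU022910 had 242 and 443, against 25.9 and 20.7, and rose by 3.85 (SE 0.32, adjusted p = 0.00325). TBIU036727 had 189 and 319, against 14.5 and 23.5, and rose by 3.77 (SE 0.32, adjusted p = 0.00339). These 3 kept the call without each library, and in each of them treated replicate 2 stood well above treated replicate 1 while the groups stayed far apart.

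The remaining 4 of the 7 were TBIU027709, TBIU036931, TBIU026747 and TBIU037110, at log2 fold changes of 4.55, 4.0, 3.91 and 3.66 with adjusted p of 0.0156 to 0.0458, and they kept the call without 2 or 3 of the 8 libraries. The other unigene of the match was at 0.26 (adjusted p = 0.738). In NH-JS1 the levels were high in both states, as for TBIU027710 with 572 and 557 with GA and 494 and 462 without, so the low values of this match were those of untreated NH-JS2.

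The same shape appeared in a few other unigenes, but other unigenes of their matches did not pass in edgeR. Those of AT1G10000 ran from -0.48 to 1.22 and that of AT2G20480 was at -0.47. The last one below, TBIU068882, lacks the high NH-JS1 level of the rest. Its raw counts were 19 and 23 with GA and 2 to 4 in all other libraries. It thus passed the filter on low counts only through NH-JS2_GA, and it was the 1 call that DESeq2 did not share. TBIU048083, matched to the ribonuclease H-like protein AT1G10000, had 456 and 1107 raw counts in NH-JS2_GA and 1 and 2 in NH-JS2, where 1 is the floor. The treated level after taking off the floor was 1368 times the untreated one, but with 1 count above the floor in NH-JS2 the interval ran from 245 to 54068 (95%, counting error only). The unmatched TBIU076913 behaved alike, at 350 and 672 scaled counts against 2.08 and 1.38, and both kept the call without each library. TBIU015098, matched to AT2G20480, had 43.4 and 91.5 against 4.15 and 2.77 (log2 fold change 4.21, adjusted p = 0.0378) and kept the call without only 2 libraries. The unmatched TBIU068882 had 19.6 and 21.2 against 3.11 and 2.77 (2.74, adjusted p = 0.0477) and lost the call without any 1 of the 8 libraries.

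Over all of these, 12 called unigenes were at 5 scaled counts or fewer in both libraries with GA and 11 were at 30 or fewer in both libraries without GA. Among the 11, treated replicate 2 was 1.08 times treated replicate 1 in TBIU068882 and 1.685 to 2.17 times in all the others. With a stricter rule of at most 3 raw counts in both libraries of a group and at least 100 in both of the other, 2 unigenes (TBIU048083 and TBIU076913) were higher with GA and 0 lower. A looser rule was added after the data were seen. It took at most 10 scaled counts in both libraries and a mean at least 5 times higher in the other group. It also set a minimum for both libraries of that other group, where the lowest value was 20.7 scaled counts. This rule gave 11 higher and 12 lower.

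**Figure D2:**
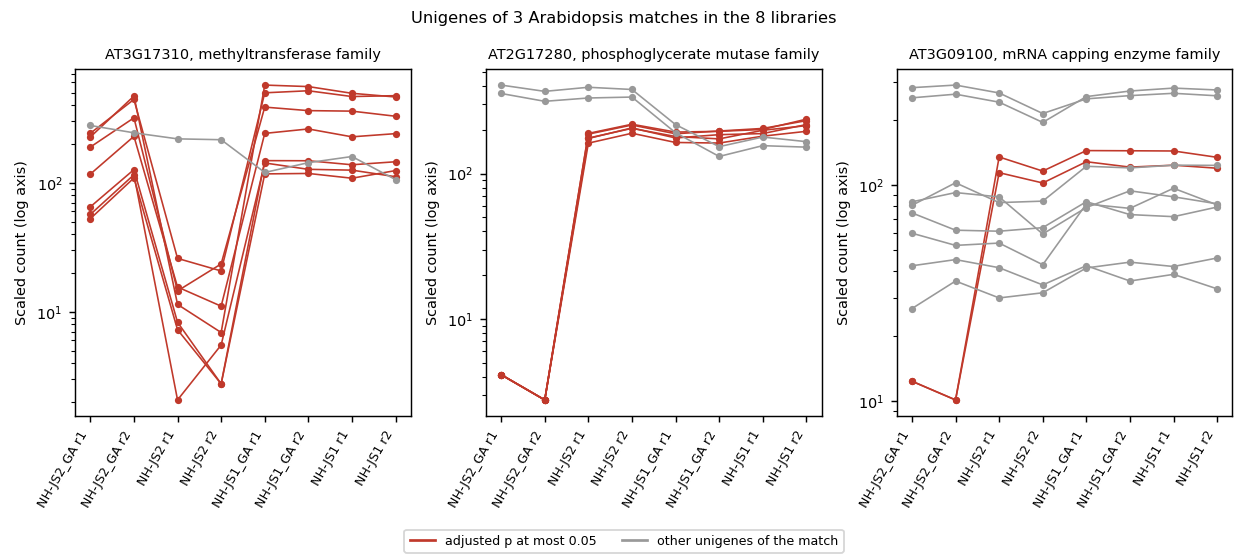
Scaled counts (log axis) of every tested unigene of the matches AT3G17310, AT2G17280 and AT3G09100 in the 8 libraries, with unigenes past an adjusted p of 0.05 for GA in NH-JS2 in red and the others in grey. The red unigenes of AT3G17310 drop only in the 2 untreated NH-JS2 libraries and those of AT2G17280 and AT3G09100 only in the 2 treated ones, while the grey unigenes of the same matches do not follow them.

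The Arabidopsis numbers of the called matches were uneven along chromosome 3, a pattern noticed after the values were seen and given here without a test. Of 1112 tested unigenes with a match between AT3G05000 and AT3G09999, 13 were called (1.17%), 2 higher and 11 lower, against 0.0613% of all unigenes with a match. They belong to 9 genes, and 1 of the higher and 7 of the lower kept the call without each library. The median log2 fold change over all 1112 was -0.01. These are positions of the matches in Arabidopsis, and positions in the radish genome were not used here.

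Several genes of this stretch showed graded losses rather than loss to the floor. The 3 unigenes of AT3G08950, an SCO1/SenC protein of the kind that brings copper to cytochrome c oxidase, had between 61.0 and 124 in NH-JS2_GA and between 412 and 688 in NH-JS2, with log2 fold changes of -2.46, -2.47 and -2.71 (adjusted p = 3.23e-05 each). TBIU066060, matched to the glycine-rich protein AT3G06780, had 84.8 and 71.1 in NH-JS2_GA, against 349 and 306 in NH-JS2 (-2.07, SE 0.14, adjusted p = 0.000588), and TBIU066059 of the same gene fell by 2.14. TBIU039234, a rhodanese-like protein (AT3G08920), had 390 and 389 against 1247 and 1435 (-1.78, SE 0.13, adjusted p = 0.000928). Except TBIU066059, these 6 unigenes kept the call without each library. TBIU064616, matched to AT3G05450, had 173 and 153 against 391 and 509 (-1.46, adjusted p = 0.0173). TBIU038032, matched to Fes1A (AT3G09350), a nucleotide exchange factor of Hsp70 chaperones, had 310 and 324 against 781 and 628 (-1.15, SE 0.13, adjusted p = 0.0286), and its 3 other unigenes, at -0.91 to -0.36, did not pass in edgeR, while DESeq2 called TBIU038033 (-0.83, DESeq2 adjusted p = 0.00271).

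Genes in the same stretch also rose. TBIU047489, matched to galactokinase (GALK, AT3G06580), which phosphorylates free galactose, had 1986 and 1819 in NH-JS2_GA, against 894 and 774 in NH-JS2. It rose by 1.19 (SE 0.13, adjusted p = 0.0243) and kept the call without 3 of the 8 libraries. TBIU024603, matched to the DUF642 protein AT3G08030, had 843 and 795 against 103 and 96.8 and rose by 3.03 (SE 0.12, adjusted p = 3.23e-05) with the call kept throughout.

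Among called genes elsewhere, the copper chaperone of superoxide dismutase showed the clearest graded loss. TBIU068091, matched to CCS (AT1G12520), which loads copper into Cu/Zn superoxide dismutase, had 33.1 and 52.7 in NH-JS2_GA, against 229 and 232 in NH-JS2. It fell by 2.41 (SE 0.23, adjusted p = 0.00728) and kept the call without each library, while the other 7 unigenes of CCS were at -0.34 to 0.06. In NH-JS1 this unigene had 71.7 and 99.1 with GA and 167 and 156 without (-0.91, adjusted p = 0.331).

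RAD-like 4 (RL4, AT2G18328), a small protein with a MYB-type domain, had 89.9 and 81.3 in NH-JS2_GA, against 226 and 259 in NH-JS2, and fell by 1.5 on the log2 scale (TBIU060319, SE 0.15, adjusted p = 0.0116). Trypsin inhibitor protein 2 (TI2, AT2G43520), a protease inhibitor of the mustard family, had 234 and 292 against 540 and 509 and fell by 1.0 (TBIU015820, SE 0.13, adjusted p = 0.0458). Its second unigene, TBIU015821, was at -0.89 and missed the edgeR threshold (adjusted p = 0.0751) but passed in DESeq2 (adjusted p = 0.0035). For RL4 and TI2 the call all but fixes that groups do not overlap in NH-JS2, so this adds no support. In NH-JS1 they did not overlap either, and RL4 was at -0.76 and TI2 at -0.51 with adjusted p of 0.162 and 0.371.

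On the higher side, TBIU006375, matched to the pectin methylesterase and invertase inhibitor protein AT2G45220, had 236 and 250 in NH-JS2_GA, against 63.3 and 92.6 in NH-JS2 (1.66, SE 0.20, adjusted p = 0.0306). It was the 1 called unigene that also passed for GA in NH-JS1 (1.36, adjusted p = 0.0388). TBIU063754, matched to AT2G32240, had 99.2 and 118 against 37.4 and 31.8 (1.64, adjusted p = 0.0298), while the other tested unigenes of that match ran from 0.10 to 0.55. TBIU018745, a P-loop nucleoside triphosphatase (AT5G52882), had 1230 and 1322 against 659 and 729 (0.88, SE 0.11, adjusted p = 0.0373), with the others of its match at 0.37 to 1.06. None of the others of these matches passed in edgeR, and the called unigenes are TBIU006375, TBIU063754 and TBIU018745. These 3 kept the call without 1 or 2 libraries only.

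None of the genes of GA synthesis, inactivation or perception passed the edgeR or the DESeq2 test, and several differed before adjustment (p under 0.05). Of 13 tested unigenes of GA biosynthesis 0 were higher and 3 lower at that level, of 6 of GA inactivation 3 were higher and 0 lower, and of 25 of GA perception and signalling 2 were higher and 11 lower. The median log2 fold changes of these lists were -0.44, 0.80 and -0.09, against -0.01 over all unigenes, and single libraries moved them. The biosynthesis median was -0.18 without NH-JS2 replicate 1, -0.77 without NH-JS2 replicate 2, -0.39 without NH-JS2_GA replicate 1 and -0.19 without NH-JS2_GA replicate 2. In the same order of libraries left out, the inactivation median was 1.73, 0.43, 0.99 and 0.57, and the perception and signalling median was -0.08, -0.10, -0.38 and -0.15.

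KAO2, which makes the first GA of the pathway from kaurenoic acid, had 114 and 87.8 in NH-JS2_GA, against 243 and 131 in NH-JS2, at a log2 fold change of -0.91 (TBIU020580, SE 0.27, unadjusted p = 0.00899, adjusted p = 0.477). The groups did not overlap, but the untreated pools lay farther from each other than the lower of them lay from the treated pools. GA20ox3 had 108 and 24 against 111 and 99.6, so treated replicate 1 was level with the untreated pools (-0.70, SE 0.50). CPS, KS and KO, the earlier enzymes, were at -0.04, 0.13 and -0.18, and GA3ox genes were not analysed here. GA2ox2, which inactivates GA, had 222 and 275 in NH-JS2_GA and 184 and 74.7 in NH-JS2, at 0.92 (TBIU053461, SE 0.32, unadjusted p = 0.0207, adjusted p = 0.523). All 3 of its unigenes were higher without overlap, at 0.83 to 0.92, and here untreated replicate 2 was the low library.

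The GID1 receptors had lower values with GA in each gene. GID1A had 202 and 165 in NH-JS2_GA, against 380 and 250 in NH-JS2 (-0.79, SE 0.20, unadjusted p = 0.00332, adjusted p = 0.408). GID1B had 54.8 and 37.9 against 82.0 and 104 (-1.0, SE 0.26, unadjusted p = 0.00414, adjusted p = 0.432), and GID1C had 309 and 338 against 560 and 365 (-0.52, SE 0.20, adjusted p = 0.539). All 6 tested unigenes of the 3 receptors were lower without overlap before adjustment (p under 0.05).

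The DELLA genes were level or slightly higher in the treated pools. RGA had 3362 and 3466 in NH-JS2_GA, against 3257 and 2880 in NH-JS2 (0.15), RGL1 and RGL3 were at 0.48 and -0.09, and RGL2 had 524 and 546 against 343 and 416 (0.50, unadjusted p = 0.00394, adjusted p = 0.427). SLY1, the F-box protein that binds DELLAs, had 606 and 559 against 805 and 719 (-0.39, adjusted p = 0.444). SCL3, a GRAS protein that in Arabidopsis is activated by DELLAs and opposes them, had 118 and 105 against 176 and 166 (TBIU044958, -0.62, SE 0.14, unadjusted p = 0.0016, adjusted p = 0.318), and its 4 unigenes were all lower without overlap.

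Values in NH-JS1 for these genes came from other libraries, which enter the same fit. GID1A was at -0.64 there, GID1B at -0.90, GID1C at -0.33, SCL3 at -0.58, RGL2 at 0.43 and GA2ox2 at 0.78, and none passed. Of 10 tested unigenes of GASA peptides, small cysteine-rich proteins many of which respond to GA, 0 were higher and 1 lower before adjustment (p under 0.05), with 0 calls by edgeR or DESeq2. The most abundant, GASA6, overlapped with 2634 and 2544 against 1993 and 2681 (0.15), and GASA1 had 1550 and 1764 against 2178 and 1954 (-0.32, adjusted p = 0.558).

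**Figure D3:**
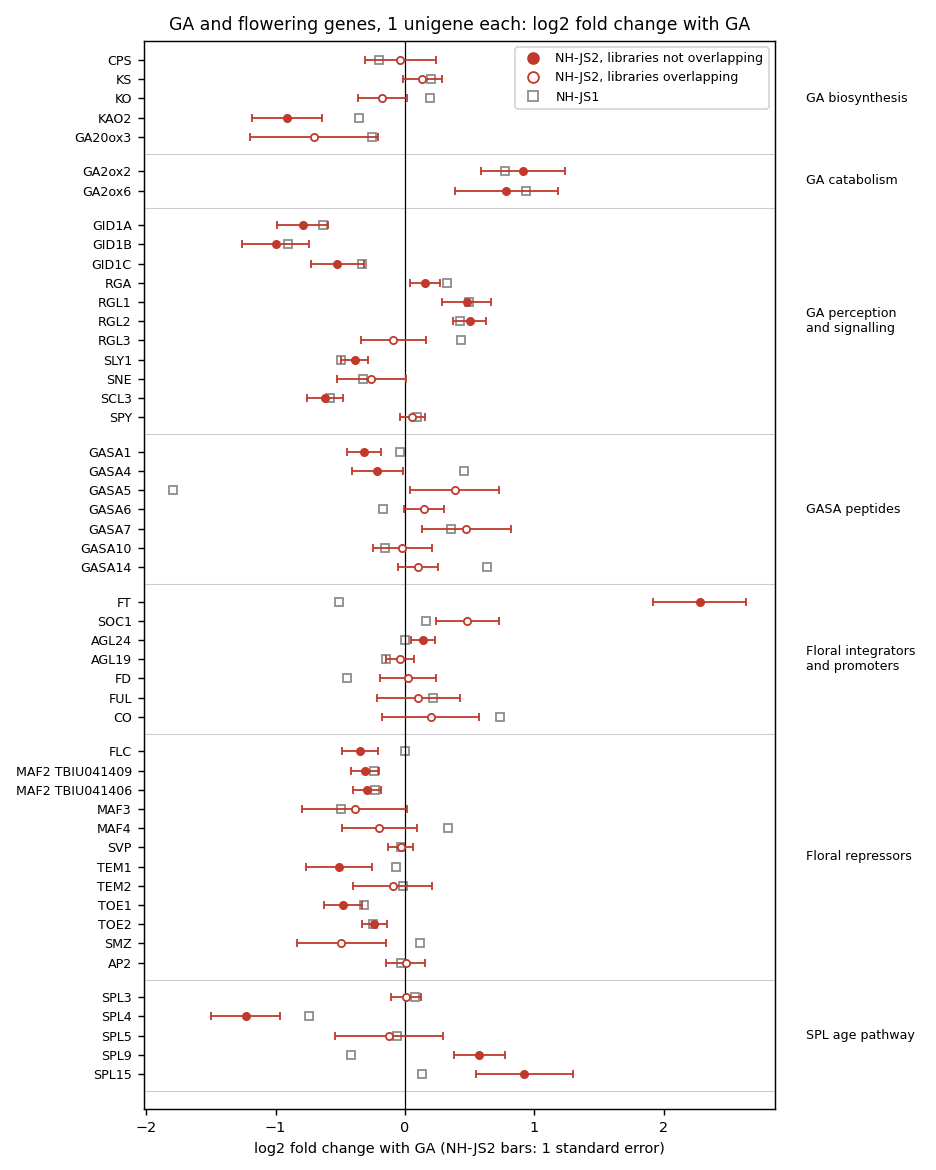
Log2 fold change with GA of GA and flowering genes, by 1 unigene each, with NH-JS2 in red (bars are 1 standard error; filled where the 2 libraries with GA do not overlap with the 2 without) and NH-JS1 in grey squares. GID1A, GID1B, GID1C and SCL3 lie left of 0 and GA2ox2 right of 0 in both lines, and FT stands out to the right in NH-JS2 at 2.28.

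Among flowering genes the highest log2 fold change was that of FT, the mobile florigen made in leaves. Its 1 unigene, TBIU006696, had 62.0 and 121 in NH-JS2_GA, against 20.8 and 16.6 in NH-JS2, while NH-JS1 was near the floor with 2.02 and 1.00 with GA and 1.68 and 2.76 without. Both treated NH-JS2 pools lay above both untreated ones. In scaled counts the treated pools differed from each other by more than the lower of them differed from the untreated ones. As ratios they differed by less. The log2 fold change was 2.28 (SE 0.36, unadjusted p = 0.000158), which missed the edgeR threshold at an adjusted p of 0.106 and passed in DESeq2 at 0.0269. The edgeR adjusted p was 0.0186 without NH-JS2_GA replicate 1 and 0.249 without NH-JS2_GA replicate 2, with log2 fold changes of 1.71 to 2.68 over the libraries left out. The difference of the FT effect between the lines (2.79, unadjusted p = 0.0373) did not pass.

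The other integrators did not pass in edgeR or DESeq2. SOC1, a MADS-box gene on which several flowering pathways meet, had 2301 and 3141 in NH-JS2_GA, against 2418 and 1474 in NH-JS2, and the groups overlapped (0.48, SE 0.24, adjusted p = 0.615). AGL24, a partner of SOC1, had 928 in both treated pools and 859 and 825 in NH-JS2 (0.14, adjusted p = 0.719), with all 7 of its unigenes higher without overlap. FUL, FD, AGL19 and CO were at 0.10, 0.02, -0.04 and 0.20, and LFY and TSF were not analysed here. Over the 26 tested unigenes of integrators and promoters 1 was higher and 0 lower before adjustment (p under 0.05), and DESeq2 called 1, FT.

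Floral repressors had lower values with GA by small margins. FLC, which represses FT and SOC1 until it is silenced by cold, had 1126 and 1107 in NH-JS2_GA, against 1561 and 1276 in NH-JS2 (TBIU004737, -0.35, SE 0.14, unadjusted p = 0.0356, adjusted p = 0.545). NH-JS1 had 1620 and 1791 with GA and 1875 and 1542 without, which overlap. Of the 8 FLC unigenes in NH-JS2, 7 were lower without overlap and 6 were lower before adjustment (p under 0.05), over a range of -0.57 to 0.09. Among them are TBIU041409 (-0.31) and TBIU041406 (-0.29), which the study assigned to MAF2 but whose match in the deposited table is FLC.

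TOE1, an AP2-type repressor of FT, had 1252 and 1014 in NH-JS2_GA, against 1410 and 1750 in NH-JS2 (-0.48, SE 0.14, unadjusted p = 0.0092, adjusted p = 0.477), and TOE2 had 340 and 351 against 398 and 418 (-0.24). TEM1, a repressor of FT and of GA synthesis, had 189 and 174 against 251 and 265 (-0.51, adjusted p = 0.607). SVP and AP2 were at -0.03 and 0.01. In all, 0 of 39 tested unigenes of floral repressors passed in edgeR or DESeq2, 0 were higher and 12 lower before adjustment (p under 0.05), and 0 were higher and 22 lower without overlap. The median was -0.25, and -0.23 without NH-JS2 replicate 2.

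The SPL genes, targets of miR156 that promote flowering with age, had values in both directions. SPL9 had 255 and 235 in NH-JS2_GA, against 181 and 147 in NH-JS2 (TBIU040688, 0.57, SE 0.20, unadjusted p = 0.017, adjusted p = 0.514). All 9 of its unigenes were higher without overlap, at 0.40 to 0.74. Of the 9 of 19 SPL unigenes that were higher before adjustment (p under 0.05), 7 were those of SPL9, so that count is mostly 1 gene. SPL4 had 75.5 and 76.7 against 229 and 124 (TBIU015321, -1.23, SE 0.27, adjusted p = 0.304) and was the 1 SPL unigene called by DESeq2, at 0.0496. SPL15 had 15.5 and 12 against 5.19 and 9.68 (0.92), and SPL3 and SPL5 were at 0.00 and -0.12. In NH-JS1 the SPL9 unigene was at -0.41 and the SPL4 unigene at -0.74. The difference between the lines did not pass for these 2 unigenes.

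SEP3, a floral organ identity gene, had 118 and 122 in NH-JS2_GA, against 95.5 and 83.0 in NH-JS2 (0.42, unadjusted p = 0.0335, adjusted p = 0.541), with 4.60 to 8.01 in NH-JS1. Tests covered 4 of the 10 floral organ unigenes. Their summed scaled counts were 357 and 361 with GA and 309 and 267 without, and AP1, CAL, AP3, PI and SEP2 were not analysed here. Of 103 unigenes of the clock and light signalling 1 was higher and 2 lower before adjustment (p under 0.05), and of 32 vernalization unigenes 0 and 1, with 0 calls by edgeR or DESeq2 in either list.

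**Figure D4:**
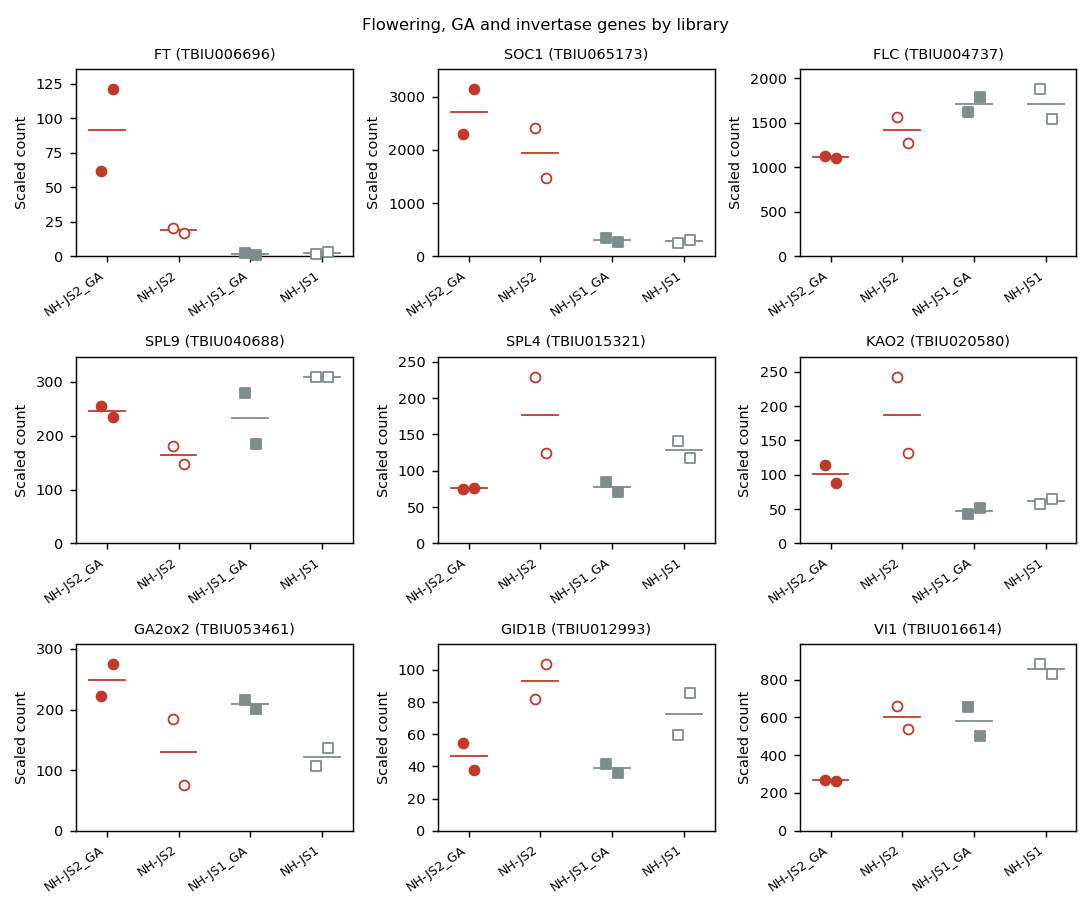
Scaled counts by library (points) and group mean (lines) of FT, SOC1, FLC, SPL9, SPL4, KAO2, GA2ox2, GID1B and VI1 in NH-JS2_GA, NH-JS2, NH-JS1_GA and NH-JS1. FT lies at 62.0 and 121 in NH-JS2_GA and at 20.8 or below elsewhere, SOC1 overlaps between the NH-JS2 groups, and for KAO2 and GA2ox2 the 2 untreated NH-JS2 pools lie far apart.

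DESeq2 called 21 DEGs higher (0.0319%) and 31 lower (0.047%) by the DEG criteria given above. Of these, 46 were not DEGs by edgeR, 18 higher and 28 lower, and 37 of the 46 had a match. None of the 46 overlapped between groups, but their selection on the same libraries all but fixes this, so it adds no support. Their edgeR adjusted p ran from 0.0243 to 0.382, and only 4 (GALK, AT5G52882, Fes1A and TI2, above) were at 0.05 or below. The values that follow are those of genes called by DESeq2 alone.

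CORI3, VSP2 and PR4 had the lowest log2 fold changes of these. CORI3 (AT4G23600), a cystine lyase induced by jasmonate, had 131 and 95.2 in NH-JS2_GA, against 581 and 433 in NH-JS2 (TBIU062103, -2.17, SE 0.28, edgeR adjusted p = 0.0509, DESeq2 adjusted p = 1.78e-11). VSP2, a vegetative storage protein and jasmonate marker, had 357 and 420 against 1277 and 861 (-1.46, SE 0.26, edgeR adjusted p = 0.162). PR4, a chitin-binding pathogenesis-related protein, had 523 and 370 against 1193 and 1533 (-1.61, SE 0.27, edgeR adjusted p = 0.14). All 3 were also lower in NH-JS1 with GA, at -1.36, -1.18 and -1.33, without passing there. Over the jasmonate list 0 of 42 unigenes were higher and 8 lower before adjustment (p under 0.05), with 0 calls by edgeR and 1, VSP2, by DESeq2. The salicylic acid list had 0 of 70 higher and 7 lower, with 0 calls by either tool.

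The vacuolar invertase VI1 (AT1G62660), which splits sucrose in the vacuole, had 269 and 265 in NH-JS2_GA, against 660 and 541 in NH-JS2, at -1.17 (TBIU016614, SE 0.15, edgeR adjusted p = 0.0583, DESeq2 adjusted p = 1.62e-06). Its 3 unigenes were at -1.34 to -1.17 and all 3 passed in DESeq2, while BETAFRUCT4, another vacuolar invertase, overlapped between groups at -0.19. BR6OX2, which makes brassinolide, had 196 and 211 against 437 and 357 (-0.97, edgeR adjusted p = 0.101, DESeq2 adjusted p = 0.0057). Also lower were 3 unigenes of the TRAF-like protein AT4G00780 (-1.20 to -1.15), EXL2 (-1.06), the O-methyltransferase AT1G77520 (-1.01) and the lipid-transfer-type protein AT3G22142 (-1.0). In EXL2 the untreated pools stood at 704 and 419, and in TBIU061390 of AT4G00780 at 457 and 854, so those differences rest on 1 untreated pool more than the other.

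Some cell wall genes were among the higher values, while the medians of their lists were near 0. The polygalacturonase AT2G33160, of a family that cuts pectin, had 960 and 945 in NH-JS2_GA, against 420 and 512 in NH-JS2 (TBIU068553, 1.03, SE 0.16, edgeR adjusted p = 0.101, DESeq2 adjusted p = 0.000165), and 2 further unigenes were at 1.02 and 1.0. In NH-JS1 they were at -0.10 to -0.07. Pectin methylesterase 61 (PME61) had 2112 and 1987 against 1305 and 950 (0.86, SE 0.16, edgeR adjusted p = 0.179). XTH24, which remodels xyloglucan, had 14739 and 13952 against 9910 and 8603 (TBIU040476, 0.63, SE 0.14, edgeR adjusted p = 0.324), with 0.74 in NH-JS1.

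Over 242 pectin-modifying unigenes, 38 were higher and 15 lower before adjustment (p under 0.05), edgeR called 1 higher and DESeq2 10 higher and 1 lower, and the median was 0.09, with 0.02 without NH-JS2 replicate 1 and 0.19 without NH-JS2 replicate 2. Of 44 XTH unigenes 5 were higher (11.4%) and 1 lower (2.27%), with 0 edgeR calls. DESeq2 called 3 higher, all of them unigenes of XTH24, so that count is 1 gene. Their median was 0.11, with 0.35 in NH-JS1. Of 56 expansins 4 were higher (7.14%) and 0 lower, with 0 calls by either tool. The expansin median was 0.05, with -0.14 without NH-JS2 replicate 1. Over all tested unigenes 3.74% were higher and 5.03% lower at that level. EXPA15, an expansin, had 319 and 273 against 138 and 205 (0.80, SE 0.22, edgeR adjusted p = 0.457). Outside the wall, 2 unigenes of the DUF607 protein AT2G23790 were at 1.27 and 1.25, with 597 and 795 against 339 and 234 for TBIU007095, and the mitochondrial carrier UCP5 had 656 and 814 against 358 and 383 (0.99, edgeR adjusted p = 0.0759).

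Ribosomal protein and photosynthesis genes had slightly lower values with GA, by margins that changed with single libraries. Of 809 ribosomal protein unigenes, 2 were higher and 198 lower before adjustment (p under 0.05) and 21 were higher and 409 lower without overlap, with 0 calls by edgeR and 5 lower by DESeq2. Their median was -0.25, with -0.11 without NH-JS2 replicate 2, -0.17 without NH-JS2_GA replicate 2 and -0.37 without NH-JS2 replicate 1. Their summed scaled counts were 808660 and 729440 with GA and 824310 and 1069100 without, so untreated replicate 2 alone lay far above the treated pools. Light-harvesting proteins, which bind chlorophyll, had a median of -0.24 over 67 unigenes, with -0.11 without NH-JS2 replicate 2 and -0.37 without NH-JS2 replicate 1. The leaf photosynthesis markers had a median of -0.47, with -0.03 without NH-JS2 replicate 2 and -0.84 without NH-JS2 replicate 1, and with sums of 938440 and 1011500 with GA and 1044200 and 1661500 without. The part of either untreated library in these values was not tested beyond leaving it out.

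Other lists had values in both directions. Of 545 NBS-LRR immune receptor unigenes 33 were higher and 4 lower before adjustment (p under 0.05), with a median of 0.13, and 0.12 without NH-JS2 replicate 2, and 0 calls by edgeR or DESeq2. Legume-type lectins had 0 of 36 higher and 11 lower with a median of -0.25, and -0.26 without that library, 0 calls by edgeR and 2 lower by DESeq2. Replication licensing genes, which load the helicase onto DNA before S phase, had a median of 0.13 over 25 unigenes that went to 0.54 without NH-JS2 replicate 2 and to -0.23 without NH-JS2 replicate 1, with 2 higher and 0 lower and 0 calls by either tool. Auxin-responsive Aux/IAA and ARF genes had 11 of 103 higher and 1 lower, with 0 calls by either tool, among them IAA19 at 330 and 278 against 227 and 170 (0.60, SE 0.16, edgeR adjusted p = 0.44).

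**Figure D5:**
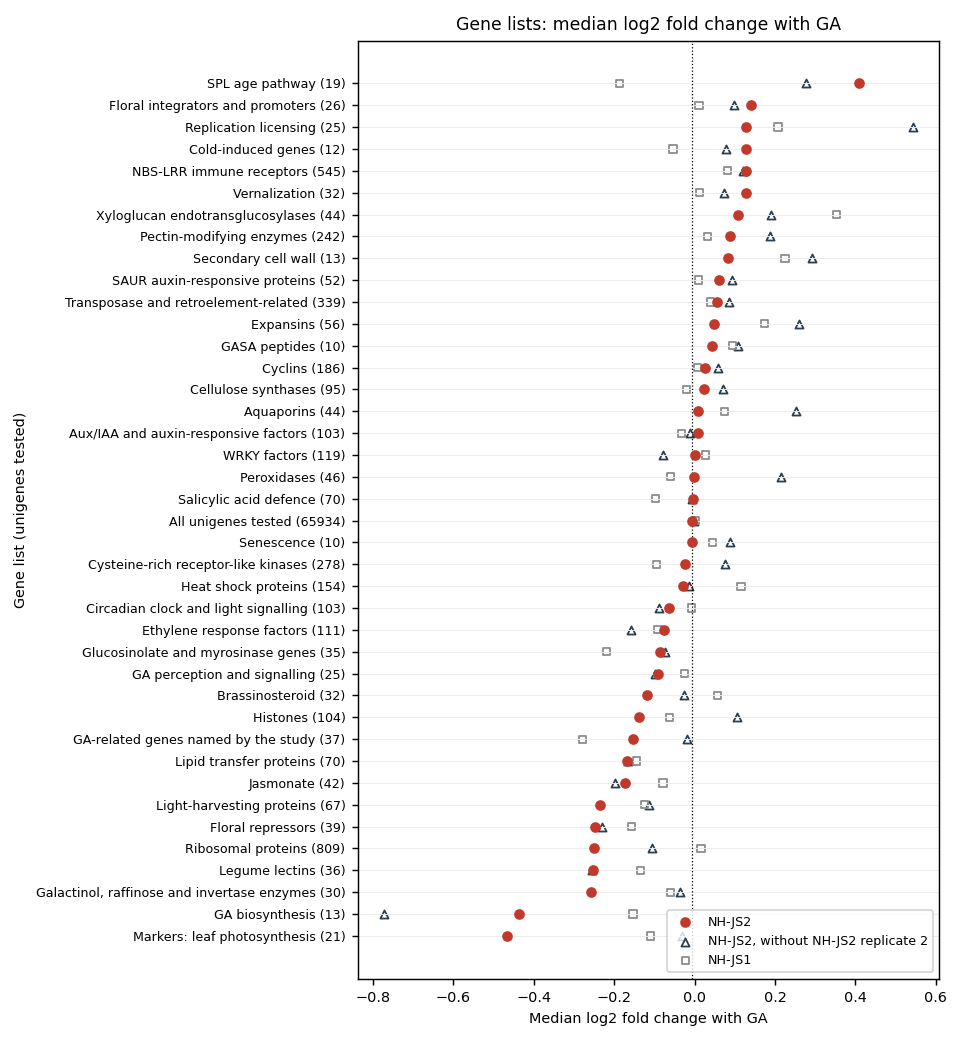
Median log2 fold change with GA of the unigenes tested in each gene list (number tested in brackets), with NH-JS2 as red circles, NH-JS2 without NH-JS2 replicate 2 as open triangles and NH-JS1 as grey squares. The dotted line is the median over all tested unigenes in NH-JS2. The leaf photosynthesis markers lie at -0.47 and move to -0.03 without NH-JS2 replicate 2, whereas floral repressors stay at -0.25 and -0.23.

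Whether GA acted differently in NH-JS2 than in NH-JS1 was tested directly. The effect in NH-JS2 minus that in NH-JS1 passed an adjusted p of 0.05 for 9 unigenes in the higher direction (0.0137%) and 30 in the lower (0.0455%). Of the 42 unigenes called in NH-JS2, 23 were among these 39, 6 higher and 17 lower. They included the AT2G17280 and AT3G09100 unigenes above, 3 of AT3G17310, TBIU048083, TBIU076913 and the called unigenes of AT3G08030, AT3G08920 and AT3G08950. For TBIU069267 the difference was -5.67, for TBIU039250 -3.52 and for TBIU027710 4.95. CCS, RL4, TI2 and GALK were not among them, which does not show that the lines responded alike.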

How the data were processed

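Shoots of NH-JS2_GA and NH-JS2, with those of NH-JS1_GA and NH-JS1, were profiled by RNA-seq in 2 libraries per group, each from 3 pooled plants. The authors mapped trimmed reads to radish unigenes with Bowtie2 2.1.0, allowing 2 mismatches, and the table they deposited holds a raw read count for each unigene and library, with a floor of 1. The submitters' processing notes also name TopHat, in a version not given in the sources used here. Normalized values and log2 fold changes by the authors, in the same table, were not used.

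Raw counts of the 8 libraries entered 1 model with a mean for each group in edgeR 4.0.16 (R 4.3.3), with TMM factors of 0.886 to 1.043, its filter for low counts (65934 unigenes kept, 55462 with a match) and a common dispersion of 0.0171. The quasi-likelihood test was applied to NH-JS2_GA against NH-JS2 and to the difference of that effect from the one in NH-JS1, with Benjamini-Hochberg adjustment over all unigenes tested. Library totals of 23757588 to 34165272 reads set the counting error, and intervals cover counting error only. The tests were first tried on simulated counts.

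The genes named are all matched unigenes at an adjusted p of at most 0.05 and the 2 highest and 2 lowest unmatched ones, the 12 highest and 12 lowest matched DEGs found by DESeq2 1.42.0 alone, GA and flowering genes by their most abundant unigene or the one the study gives, and for other lists the members so called or the highest and lowest. The comparison, the gene lists and the rule were chosen with earlier results of these data known. A list of defensins and thionins was dropped because its text search also took methionine enzymes. The alternatives were DESeq2, its size factors in edgeR, no filter, 1 subtracted from every count, a replicate block, a fit of the NH-JS2 libraries only, counts summed by match, other DEG limits and leaving out each library.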

Additional observations from a re-analysis of the deposited data

Results flagged for a closer look

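These results are listed because the log2 fold change with GA in NH-JS2 differed from that in NH-JS1 by a direct test (edgeR quasi-likelihood test, adjusted p of at most 0.05). In all 9 unigenes differed in the higher and 30 in the lower direction, and 21 of the unigenes named above are among them. Values are the log2 fold change in NH-JS2 minus that in NH-JS1.

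The higher ones were TBIU048083 (AT1G10000) at 8.58, the unmatched TBIU076913 at 8.074, 3 unigenes of AT3G17310 (TBIU027710 at 4.951, TBIU022910 at 3.741 and TBIU036727 at 3.652) and TBIU024603 (AT3G08030) at 2.79. Apart from the last, each was at 25.9 scaled counts or fewer in untreated NH-JS2 and far higher in the other 3 groups.

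Among the lower ones, the AT2G17280 unigenes TBIU069267, TBIU069268, TBIU069269, TBIU041688 and TBIU069266 were at -5.67, -5.645, -5.575, -5.519 and -5.422. TBIU069264 (AT1G14800) was at -5.421, and the unmatched TBIU069270 and TBIU069265 were at -5.244 and -5.15. These 8 may share reads and are close to 1 signal. TBIU036767 (AT3G09780) was at -4.04 and the AT3G09100 unigenes TBIU039250 and TBIU039251 were at -3.525 and -3.293.

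The AT3G08950 unigenes TBIU039242, TBIU039244 and TBIU039243 were at -2.447, -2.277 and -2.265, and TBIU039234 (AT3G08920) was at -1.416.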

How the results depend on the processing

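Of 155 named unigenes, the 38 called kept their direction under every alternative run. Adjusted p stayed at 0.05 or below for 37 with DESeq2, 38 with its size factors, 37 without a filter, 37 after subtracting 1 and 18 with only the NH-JS2 libraries. Of the 117 not called, 41 changed sign in 1 or more alternatives and 25 were called in 1 or more. Replicate numbers are not known to pair the pools (deviations correlated at 0.172 between the NH-JS2 groups and -0.134 to 0.142 otherwise), and with a replicate block 9 unigenes were higher (7 shared) and 24 lower (20 shared), and 25 of the 38 stayed past the threshold.

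With DESeq2, DEGs were 21 higher and 31 lower, calls at an adjusted p of 0.05 were 60 and 138, those at an unadjusted p were 923 and 1998, and differences between lines 22 higher. With only the NH-JS2 libraries, 1 DEG was higher, calls were 3 higher and 17 lower and 2082 were lower at an unadjusted p, and the difference between lines has no value there. With no minimum count, DEGs were 6 and 18. Summed over matches (16483 tested), calls were 6 and 9, at an unadjusted p 719 and 1001, and differences 1 and 3. The cause of these shifts was not tested.

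Leaving out 1 library gave 1 to 7 DEGs higher and 2 to 7 lower, 7 to 32 and 18 to 278 at an adjusted p of 0.05, 1539 to 3670 and 1828 to 5404 at an unadjusted p, and 5 to 21 and 16 to 42 for the difference. List medians moved by over 0.1 for 28 of 42 lists, 19 without NH-JS2 replicate 1 and 16 without replicate 2. With 2 pools a group, small changes and those near the floor are least certain.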

Other observations

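Texts of the Arabidopsis description shared by 20 or more tested unigenes numbered 355. The highest median log2 fold changes in NH-JS2 were those of phosphoglycerate mutase-like family proteins (0.33 over 22 unigenes), RNA polymerase II proteins (0.30 over 20), ribonuclease II/R family proteins (0.30 over 22), Ulp1 proteases (0.28 over 50) and Beige/BEACH domain proteins (0.28 over 21). The lowest were those of zinc-binding ribosomal proteins (-0.29 over 20), bifunctional inhibitor and lipid-transfer proteins (-0.26 over 49), the kinase WNK4 (-0.25 over 20), K-box MADS-box factors (-0.25 over 21) and FKBP-like isomerases (-0.25 over 26). This order rests in part on single libraries. Without NH-JS2 replicate 2 the zinc-binding ribosomal median was -0.09, that of RNA polymerase II 0.15, that of Ulp1 proteases 0.55 and that of WNK4 -0.38. Without NH-JS2 replicate 1 WNK4 was at -0.03, the K-box factors at -0.12, Ulp1 proteases at 0.15 and the zinc-binding ribosomal proteins at -0.47. Without NH-JS2_GA replicate 2 the lipid-transfer proteins were at -0.07 and ribonuclease II/R at 0.13, and without NH-JS2_GA replicate 1 the zinc-binding ribosomal proteins were at -0.44 and ribonuclease II/R at 0.45. Over the 4 libraries left out, phosphoglycerate mutase-like proteins stayed at 0.24 to 0.38, Beige/BEACH proteins at 0.22 to 0.29 and FKBP-like isomerases at -0.31 to -0.18. No unigene of these 10 texts passed in edgeR, DESeq2 called 2 lower in the lipid-transfer text, and most texts cover unigenes of few genes, such as the 2 genes behind the ribonuclease II/R unigenes. Of the ribonuclease II/R unigenes, whose enzymes degrade RNA from the 3′ end, 18 of 22 were higher without overlap and 11 were higher at an unadjusted p under 0.05, with a median of 0.48 in NH-JS1.

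Of unigenes with a mean of 50 or more, 228 differed by more than 4-fold between the 2 pools of NH-JS2_GA, 205 between those of NH-JS2, 89 between those of NH-JS1_GA and 59 between those of NH-JS1. Between the means of NH-JS2_GA and NH-JS2, 49 differed by as much (0.105%), although a mean of 2 pools varies less than a single pool.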
